A study of Homo sapiens with 4 samples.

Results

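H3K27ac, an acetylated form of histone H3 found at promoters and enhancers in use, was measured by ChIP-seq beside 9 genes of the epidermal growth factor (EGF) system. The genes were 6 ligands (AREG, EREG, BTC, HBEGF, TGFA and NRG1) and 3 receptors (EGFR, ERBB2 and ERBB3). All regions that the authors assigned to these genes were taken, which gave 98 of the 91107 distinct regions of the authors' deposited table, 71 beside ligands and 27 beside receptors. The genes were chosen by values of the comparison described here, its log2 fold changes and adjusted p-values, so these values are given as a description and are no test of the members. The cells were A375, an established human melanoma line with an activating BRAF mutation, grown in serum-containing medium. The labels describe 2 libraries from cells given isopropanol, the vehicle, and 2 from cells that received 1 mM octanoate (a fatty acid of medium chain length), with 48 hours of treatment in each group. No label says whether the libraries of a group came from separate cultures.

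Ligands of the EGF family are made as membrane-anchored precursors, and most are released by ADAM metalloproteases before they bind receptors on the same or on neighbouring cells. AREG, EREG, BTC, HBEGF and TGFA bind EGFR, and NRG1 binds ERBB3. Ligand binding pairs the receptors, whose tyrosine kinases feed the RAS-MAPK and PI3K pathways. ERBB2 has no known ligand of its own and acts as a partner, while ERBB3 has a weak kinase and signals through its partners. In melanoma, EGFR and the NRG1-ERBB3 pair are known for sustaining growth signals when BRAF or MEK is inhibited.

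The authors' deposited table gives for each region a mean level in normalized units, a log2 fold change of 1 comparison, its standard error and p-values, with no value per library, so neither the spread between replicates nor the depth of a library could be given. Coordinates are on hg38, the build in the submitters' processing notes. The header does not name the numerator of the fold change, and a positive value therefore cannot be read as a gain under octanoate. In the authors' deposited table, 36436 regions (40.0%) have an adjusted p-value, and their median log2 fold change was 0.32, a ratio of 1.25. Of 7 melanocytic markers, 4 (SOX10, MITF, PMEL and S100B) had a region over their start in the authors' deposited table, while MLANA, TYR and DCT had none. Of 8 markers of epithelial, leukocyte and endothelial cells, only EPCAM had such a region.

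Promoters of the 3 ligand genes that lie together on chromosome 4, and of the receptor EGFR, are printed. These genes had the highest and the lowest gene medians given below. That order is over all regions of a gene and not over promoters, and it changed with the regions kept. The printed promoters run from 250 bases before to 50 bases after the start, 5′ to 3′ on the strand of the gene. They come from RefSeq on GRCh38.p14. Their positions are chr4:74444886-74445185 (plus strand) for AREG, chr4:74364895-74365194 (plus strand) for EREG, chr4:74794474-74794773 (minus strand) for BTC and chr7:55018767-55019066 (plus strand) for EGFR. Capitals mark matches, on either strand, to 7 motifs searched: the AP-1 motif TGANTCA, the cyclic AMP response element (CRE) TGACGTCA, the SP1 motif GGGCGG, the TATA box with the letters TATAAA, the E-box CACGTG, the TEAD motif GGAATG and the PPAR direct repeat, in which AGGTCA comes again after 1 base.
AREG: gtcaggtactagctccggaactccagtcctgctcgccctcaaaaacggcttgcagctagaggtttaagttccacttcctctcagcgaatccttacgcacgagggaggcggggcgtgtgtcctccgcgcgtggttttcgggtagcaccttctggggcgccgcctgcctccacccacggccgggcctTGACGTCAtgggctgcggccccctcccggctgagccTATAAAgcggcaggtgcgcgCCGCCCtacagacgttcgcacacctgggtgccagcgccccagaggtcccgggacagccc
EREG: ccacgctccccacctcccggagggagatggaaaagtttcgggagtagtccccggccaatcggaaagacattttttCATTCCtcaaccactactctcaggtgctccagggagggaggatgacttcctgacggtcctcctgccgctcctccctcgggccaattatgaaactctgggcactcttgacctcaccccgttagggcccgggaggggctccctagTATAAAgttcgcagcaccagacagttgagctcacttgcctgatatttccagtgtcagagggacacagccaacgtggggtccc
BTC: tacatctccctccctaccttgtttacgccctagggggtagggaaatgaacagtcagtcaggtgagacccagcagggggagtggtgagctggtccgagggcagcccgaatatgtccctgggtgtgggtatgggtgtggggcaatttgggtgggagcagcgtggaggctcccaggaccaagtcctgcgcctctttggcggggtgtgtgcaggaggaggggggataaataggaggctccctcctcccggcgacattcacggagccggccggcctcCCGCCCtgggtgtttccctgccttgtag
EGFR: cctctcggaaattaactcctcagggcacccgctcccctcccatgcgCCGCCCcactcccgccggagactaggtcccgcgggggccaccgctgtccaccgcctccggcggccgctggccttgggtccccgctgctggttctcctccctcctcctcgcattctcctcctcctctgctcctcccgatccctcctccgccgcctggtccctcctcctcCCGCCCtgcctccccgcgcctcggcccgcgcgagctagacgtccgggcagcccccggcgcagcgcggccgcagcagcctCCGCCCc

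The AREG promoter held 1 CRE, whose first base lay 65 bases before the start, 1 TATA box 29 bases before it and 1 SP1 match. The EREG promoter held a TATA box 32 bases before the start and a TEAD match, the BTC promoter 1 SP1 match, and the EGFR promoter printed here 3 SP1 matches and no TATA box. RefSeq gives EGFR another promoter, at chr7:55109589-55109888, with 2 TATA boxes, 2 AP-1 matches, 1 TEAD match, no SP1 match and a GC content of 42.0%. It is not printed because none of its bases lay in a region of the authors' deposited table. Among 35116 RefSeq promoters of the same length, 1.85% held the CRE, 11.5% the TATA box, 45.0% the SP1 letters, 14.0% the TEAD letters, 7.71% the AP-1 letters, 7.26% the E-box and 0.0228% the PPAR repeat. GC content was 66.3% in the AREG promoter, 57.7% in that of EREG, 63.0% in that of BTC and 75.3% in that of EGFR, beside a median of 58.7% over all promoters. All 300 bases of the printed AREG, BTC and EGFR promoters lay inside an acetylated region of the authors' deposited table, and 151 bases of the EREG promoter did. A match describes the letters and does not show that a factor binds there. RefSeq promoters were matched for 7 of the 9 genes by symbol, and not for ERBB3 and NRG1. The RefSeq promoter given for ERBB2 lay in a region that the authors' deposited table assigns to PGAP3, at 39687242 to 39689638 on chromosome 17, and is not printed.

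The ligand loci had higher values than the receptor loci in the authors' deposited table, a difference given without a test. Of the 71 ligand regions, 65 had a positive log2 fold change, beside 20 of 27 receptor regions and 73.7% of all regions. The median of the ligand regions was 0.57 (95% interval over regions 0.44 to 0.65) by the authors' deposited table. The 27 receptor regions had a median of 0.22 (0.00 to 0.30). The difference of medians was 0.36. The interval covers variation between regions of the same libraries and not between cultures. In bulk cells, acetylation in fewer cells and less of it per cell cannot be told apart. Among all 91107 regions of the authors' deposited table the median was 0.28. Of 44 member regions with an adjusted p-value, 5 had one under 0.05 by the authors' deposited table, beside 1.67% of all regions that have one, or 1.65% when positive regions alone are counted. All 5 were positive and lay beside EREG or AREG. At an unadjusted p-value under 0.05, 18 of 71 ligand regions were positive in the authors' deposited table, 0 of 27 receptor regions were, and 8.68% of all regions were. No member region was negative at that level, and only 282 of all 91107 regions were, so this does not set the members apart.

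The difference between the classes came largely from 1 stretch of chromosome 4. The 29 regions beside EREG, AREG and BTC had a median log2 fold change of 0.76 (0.59 to 0.92) by the authors' deposited table. The 42 regions beside HBEGF, TGFA and NRG1 had a median of 0.34 (0.22 to 0.55), close to that of the whole table, and without the chromosome 4 genes the difference between ligands and receptors was 0.12. Gene medians in the authors' deposited table ran, from high to low, 0.92 for EREG, 0.82 for AREG, 0.59 for BTC, 0.49 for HBEGF, 0.39 for TGFA, 0.26 for ERBB3, 0.26 for ERBB2, 0.22 for NRG1 and 0.09 for EGFR. Neighbours in this order had overlapping ranges of regions. EREG and EGFR, at the ends of it, overlapped in range by a single pair: the lowest EREG region had 0.52 and the highest EGFR region 0.54. The order changed when only regions with an adjusted p-value were kept: AREG was then highest with a median of 1.04 by the authors' deposited table, before EREG with 0.90, and EGFR had 0.29, above TGFA with 0.26, ERBB2 with 0.26 and NRG1 with 0.25.

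**Figure D1:**
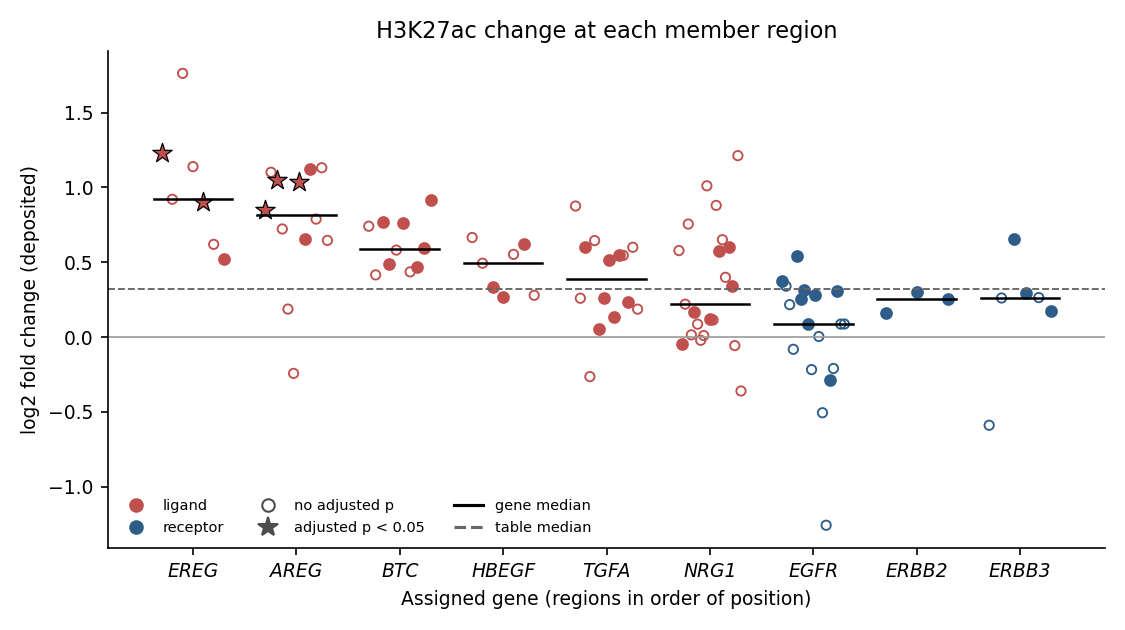
Deposited log2 fold change (vertical axis) of every region beside the 9 genes (horizontal axis), ligands in red and receptors in blue; filled points have an adjusted p-value, open points have none, stars have one under 0.05, and short black lines are gene medians. The 5 stars lie beside EREG and AREG, and the EGFR median is 0.09 over all its regions and 0.29 over filled points, beside a dashed median of 0.32 over all regions of the table with an adjusted p-value.

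EREG encodes epiregulin, a ligand of EGFR and ERBB4. Its highest region, at 74369959 to 74378312 on chromosome 4, began 4.82 kb past the start, spanned 8353 bases and had a mean level of 136 by the authors' deposited table. There its log2 fold change was 0.90 ± 0.21 (standard error) by the authors' deposited table, a ratio of 1.87, and its adjusted p-value of 0.00645 was the smallest of any member. A second called region, at 74360185 to 74363467, ended 1.68 kb before the start and had 1.23 ± 0.34 (standard error), a ratio of 2.35, at a mean level of 28.5 and an adjusted p-value of 0.0284 by the authors' deposited table. By level not divided by width, the acetylation of this locus therefore lay mostly on both sides of the start. The region over the start itself, at 74365043 to 74365463, had a mean level of only 2.13 by the authors' deposited table, and its log2 fold change of 1.76 carried a standard error of 1.18 and no adjusted p-value. Per kb of width the contrast was smaller, with 5.07 over the start, 8.68 in the called region before it and 16.3 in the one past it. The remaining region with an adjusted p-value, 32.2 kb past the start at 74397339 to 74399012, had 0.52 ± 0.33 by the authors' deposited table. All 7 EREG regions were positive, beside 73.7% of all regions.

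AREG encodes amphiregulin, an EGFR ligand with a heparin-binding part. Its start lies 80.0 kb beyond that of EREG, and 3 of its 12 regions were called in the authors' deposited table. The region over the start, at 74444543 to 74448018, had a log2 fold change of 1.05 ± 0.30 (standard error), a ratio of 2.07, at a mean level of 43.5 and an adjusted p-value of 0.0403 by the authors' deposited table. The highest AREG region, 24.8 kb before the start at 74414427 to 74420288, had 0.85 ± 0.24 at a level of 89.6 and an adjusted p-value of 0.0352 by the authors' deposited table. The called region 55.0 kb past the start, at 74500129 to 74504452, had 1.04 ± 0.31 at a level of 39.1 and an adjusted p-value of 0.0449 by the authors' deposited table. These 3 values lay within 1 standard error of one another. A pair of further regions had an adjusted p-value that missed the threshold, and they mark the ends of the range for AREG regions that have one: 1.13 ± 0.41 (adjusted p-value 0.125) at 74531254 to 74532743 and 0.65 ± 0.40 (adjusted p-value 0.350) at 74529173 to 74530641 by the authors' deposited table. The single negative AREG region, 200 bases wide, had -0.24 ± 0.87 by the authors' deposited table. Of 17301 genes named in the authors' deposited table, 13 had 3 or more called regions, AREG among them, and 76 had 2 or more. AREG was chosen by these same values, so its place among them is a description only. The counts also take no account of how many regions a gene has, and AREG had 5 with an adjusted p-value.

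BTC encodes betacellulin, which binds EGFR and ERBB4, and its start lies 349 kb beyond that of AREG. None of its 10 regions was called in the authors' deposited table. Only 6 of them had an adjusted p-value, and 1.67% of all such regions were called. All 10 were positive, beside 73.7% of all regions, with log2 fold changes from 0.42 to 0.91. The region over the start, at 74793412 to 74794977, had the largest value of the 6 with an adjusted p-value, 0.91 ± 0.36 (standard error), at a mean level of 29.3 and an adjusted p-value of 0.160 by the authors' deposited table. The highest region, 130 kb from the start at 74656369 to 74664291, had 0.49 ± 0.23 at a level of 136 and an adjusted p-value of 0.238 by the authors' deposited table. The smallest value among those 6, 0.47 ± 0.39 with an adjusted p-value of 0.469 by the authors' deposited table, was found at 74682325 to 74683967. Most BTC regions lay far from the gene they were assigned to: 2 of 10 were within 100 kb of its start, and the other 8 lay farther off on the side of AREG.

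A window on chromosome 4 from 74260185 to 74894977, which reaches 100 kb beyond the outermost regions of the 3 genes, was examined whatever gene a region was assigned to. It held 35 regions of the authors' deposited table beside 6 genes, with a median log2 fold change of 0.72 (0.59 to 0.90), and 34 of them were positive, beside 73.7% of all regions. All 15 of its regions with an adjusted p-value lay above the median of such regions, 0.32, in the authors' deposited table, where the rest of chromosome 4 had 771 of 1565. Of the 35 regions, 29 were those of the 3 genes, as were 14 of the 15. These genes were chosen by the same values, so the counts are no separate support. EPGN, which encodes epigen, another EGFR ligand, and lies next to EREG, had 1 region there, with 0.64 ± 0.67 at a mean level of 6.68 and no adjusted p-value by the authors' deposited table. Chromosome 4 as a whole did not carry these values: its 4267 regions had a median of 0.30 by the authors' deposited table, and 1.96% of its regions with an adjusted p-value were called.

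**Figure D2:**
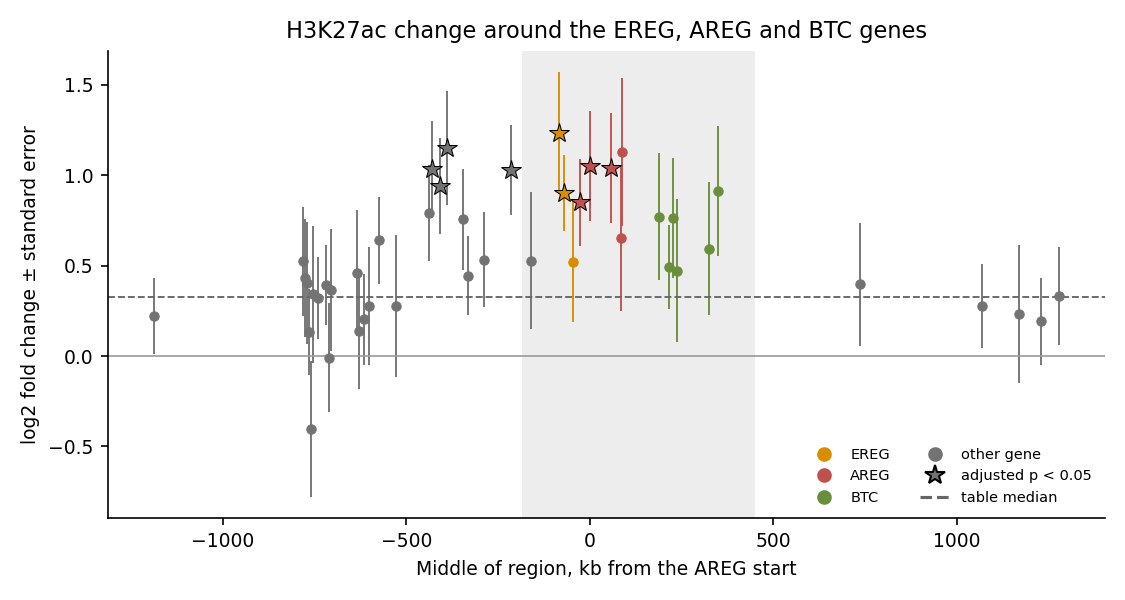
Deposited log2 fold change with its standard error (vertical axis) of regions with an adjusted p-value, by distance of their middle from the AREG start in kb (horizontal axis); colours show the assigned gene, stars an adjusted p-value under 0.05, grey shading the window examined. All 15 regions in the window, 14 of them assigned to EREG, AREG or BTC, lie above the dashed table median of 0.32. A further 4 stars lie to the left of the window.

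HBEGF, TGFA and NRG1 lie on other chromosomes, and none of their 42 regions was called in the authors' deposited table. Only 16 of the 42 had an adjusted p-value. Among all such regions 1.67% were called, so 0 calls do not set these genes apart from the table. HBEGF encodes a heparin-binding ligand, and its region over the start, at 140345574 to 140347255 on chromosome 5, had a log2 fold change of 0.62 ± 0.31 (standard error) at a mean level of 40.8 and an adjusted p-value of 0.258 by the authors' deposited table. This was also its highest region and its largest value with an adjusted p-value, while the smallest was 0.27 ± 0.32 at 140341506 to 140343493. All 7 HBEGF regions were positive, beside 73.7% of all regions.

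TGFA encodes transforming growth factor alpha, a ligand of EGFR, and had the broadest acetylation of the ligands. Its region over the start, at 70545251 to 70555596 on chromosome 2, spanned 10345 bases at a mean level of 277, the highest of all 98 member regions, with a log2 fold change of 0.52 ± 0.20 (standard error, adjusted p-value 0.147) by the authors' deposited table. The largest TGFA value with an adjusted p-value was 0.61 ± 0.23 (adjusted p-value 0.137) at 70523131 to 70527232, and the smallest was 0.05 ± 0.40 (adjusted p-value 0.936) at 70533652 to 70534925 by the authors' deposited table. Of 7 TGFA regions with an adjusted p-value, 3 lay above the table median, so this locus sat around it.

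NRG1 encodes neuregulin 1, whose gene has several starts spread over a long stretch. The 21 regions assigned to it in the authors' deposited table lay 386 to 1075 kb from the start the authors used, and none overlapped that start. Its highest region, at 32428663 to 32434663 on chromosome 8, had a log2 fold change of 0.57 ± 0.26 (standard error) at a mean level of 61.9 and an adjusted p-value of 0.211 by the authors' deposited table. The largest and smallest values with an adjusted p-value were 0.60 ± 0.33 (adjusted p-value 0.296) at 32546913 to 32549954 and -0.05 ± 0.38 (adjusted p-value 0.941) at 32226389 to 32228295 by the authors' deposited table. Of 6 such regions, 3 lay above the table median.

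The receptors had no called region among the 14 with an adjusted p-value, beside 1.67% of all such regions in the authors' deposited table. With so few regions, 0 calls do not set the receptors apart from the table. None of their 27 regions had an unadjusted p-value under 0.05, where 8.68% of all regions were positive at that level. The submitters' processing notes name DESeq2, and no other test was run. EGFR, the receptor of most of these ligands, had 18 regions, of which 12 were positive, beside 73.7% of all regions. Its region over the start, at 55018317 to 55020110 on chromosome 7, had the largest EGFR value, 0.54 ± 0.30 (standard error), at a mean level of 50.5 and an adjusted p-value of 0.301 by the authors' deposited table. The highest region, 108 kb past the start at 55127072 to 55135104, had 0.28 ± 0.23 at a level of 189 and an adjusted p-value of 0.455 by the authors' deposited table. The smallest values lay further into the gene, with -0.29 ± 0.42 (adjusted p-value 0.671) at 55177154 to 55178532 and -1.26 ± 0.84, the lowest member value and one with no adjusted p-value, at 55176264 to 55176510 by the authors' deposited table. The last region was singled out after its values were seen. The log2 fold change over the AREG start exceeded that over the EGFR start by 0.51 by the authors' deposited table, and the ranges of 1 standard error around these 2 values overlapped.

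ERBB2 had 3 regions in the authors' deposited table, with log2 fold changes between 0.16 and 0.30. The one over the start the authors used, at 39699278 to 39701797 on chromosome 17, had the largest value, 0.30 ± 0.26 (standard error), at a mean level of 83.2 and an adjusted p-value of 0.488 by the authors' deposited table, and the smallest was 0.16 ± 0.30 (adjusted p-value 0.737) at 39694713 to 39696615. ERBB3, the NRG1 receptor, carried a region of 7333 bases over its start, at 56078650 to 56085983 on chromosome 12, with a mean level of 274, a log2 fold change of 0.30 ± 0.23 and an adjusted p-value of 0.437 by the authors' deposited table. The largest ERBB3 value was 0.66 ± 0.36 (adjusted p-value 0.304) at 56073855 to 56075525, and the smallest with an adjusted p-value was 0.18 ± 0.22 (adjusted p-value 0.622) at 56102048 to 56108205 by the authors' deposited table. That last region overlaps the start of PA2G4, to which the authors' deposited table assigns it as well. Of the 14 receptor regions with an adjusted p-value, 3 lay above the table median, 2 beside EGFR and 1 beside ERBB3, whereas 22 of 30 ligand regions did. Among those ligand regions, all 14 of EREG, AREG and BTC did, and 8 of 16 of the ligands on other chromosomes.

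The mean level of acetylation is no measure of the change. Undivided, it did not separate the classes at their starts: by the authors' deposited table TGFA had 277, above ERBB3 with 274, ERBB2 with 83.2 and EGFR with 50.5, and 20.9% of all starts lay below AREG and 95.5% below TGFA. Levels were divided by region width to compare genes, and the order by class appeared only then. Per kb, the region over the start had a mean level in the authors' deposited table of 5.07 for EREG, 12.5 for AREG, 18.7 for BTC, 24.3 for HBEGF and 26.8 for TGFA. The receptors followed with 28.2 for EGFR, 33.0 for ERBB2 and 37.4 for ERBB3, above every ligand. Over 10642 start regions of the authors' deposited table the median was 25.3 per kb. Of those regions, 0.282% lay below EREG and 2.97% below AREG, whereas 91.7% lay below ERBB3. These are single values for each gene, with no spread between libraries, and NRG1 has none. Over all regions of a class, the median level per kb was 12.5 for ligands and 17.7 for receptors, beside 15.3 for the whole of the authors' deposited table.

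**Figure D3:**
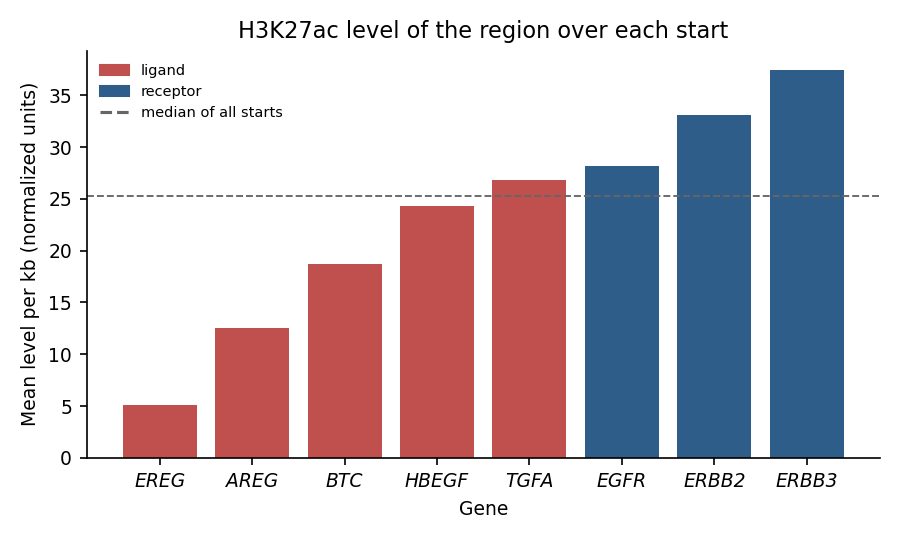
Mean H3K27ac level per kb, in the authors' normalized units (vertical axis), of the region over the start of 8 genes (horizontal axis), ligands in red and receptors in blue, without error bars because no value per library was analysed. The 5 ligands run from 5.07 to 26.8 and the 3 receptors from 28.2 to 37.4, beside a dashed median of 25.3 over all starts.

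Fold changes were also set against level, because the standard error falls as level rises. Among ligand regions with an adjusted p-value the standard error ran from 0.20 to 0.41 by the authors' deposited table, and among receptor regions from 0.22 to 0.42. The called regions had mean levels from 28.5 to 136 by the authors' deposited table. When the median of 0.32 was subtracted from every log2 fold change, with the authors' standard errors kept, 0.124% of regions passed at an adjusted p-value under 0.05 and no member region did. The 5 called regions then had log2 fold changes from 0.53 to 0.91 above the median and adjusted p-values from 0.446 to 0.744, computed from the authors' deposited table.

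**Figure D4:**
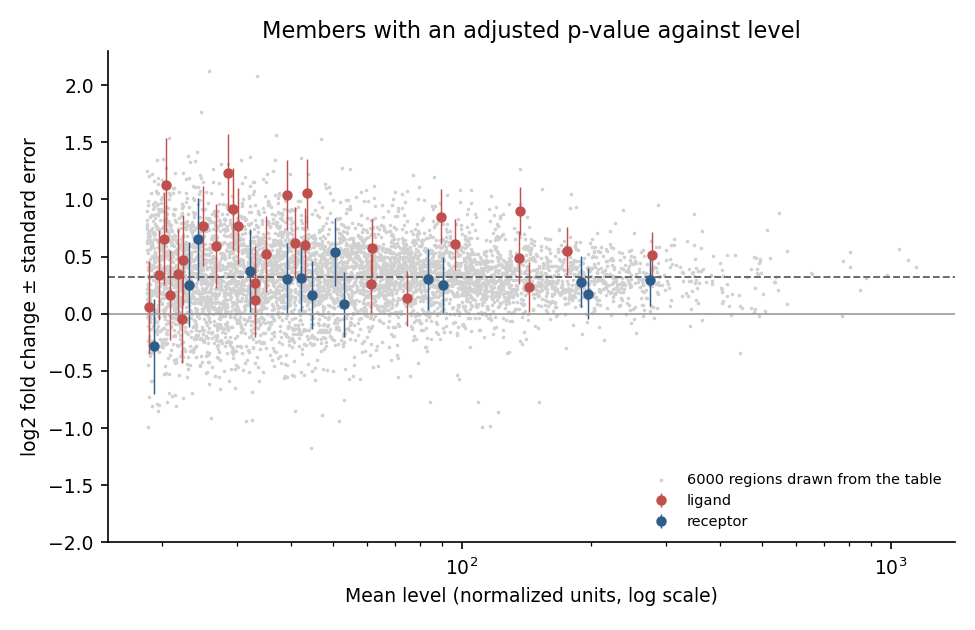
Deposited log2 fold change with its standard error (vertical axis) against mean level (horizontal axis, log scale) for the 44 member regions with an adjusted p-value, ligands in red and receptors in blue, over 6000 regions drawn from the table in grey. Ligand and receptor regions span similar levels, and 3 of 14 receptor regions lie above the dashed table median of 0.32.

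Other genes of the pathway were read from a list of 18. Their 134 regions had a median log2 fold change of 0.26 (0.22 to 0.34) by the authors' deposited table. Of 54 with an adjusted p-value, beside 1.67% called among all such regions of the table, 1 was called. It lay 55.4 kb from the start of NRG2, a neuregulin, at 139984709 to 139987913 on chromosome 5, with 1.05 ± 0.24 (standard error) at a mean level of 74.3 and an adjusted p-value of 0.00644 by the authors' deposited table. The other ligands and ERBB4 had a median of 0.47 (0.24 to 0.56) over 35 regions in the authors' deposited table, and the start region of ERBB4, a neuregulin receptor, had 0.83 ± 0.45 (adjusted p-value 0.296). The genes of ligand shedding (ADAM10, ADAM17, RHBDF1 and RHBDF2) had a median of 0.29 over 20 regions, and the adaptors GRB2, SHC1, SOS1 and GAB1, which link receptors to RAS, had 0.21 over 28 by the authors' deposited table. Inhibitors of the receptors (ERRFI1, LRIG1, CBL and RNF41) had 0.24 over 51 regions. Over the starts of 16 of the 18 genes, log2 fold changes by the authors' deposited table ran from 0.07 at GRB2 to 0.83 at ERBB4 with a median of 0.36, all positive. Starts in general were alike in this, with 97.7% positive and a median of 0.36 over all 10642 start regions. The starts of the sheddases had 0.12 ± 0.22 for ADAM10 and 0.319 ± 0.21 for ADAM17 by the authors' deposited table. Both lay within 1 standard error of the table median of 0.323.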

How the data were processed

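H3K27ac chromatin immunoprecipitation libraries of A375 cells were grouped by the treatment in the labels. The submitters' processing notes name hg38, Bowtie2, MACS2, featureCounts, DESeq2 and bedtools 2.29.1, with other tools and no order. The mean level is a signal normalized by the authors, and the log2 fold changes and standard errors are on the log2 scale, per the file headers. The deposited score is the fold change over its standard error, and the deposited p-value follows from it. The value 1, found at each region whose level was under 18.44, was read as an adjusted p-value not computed.

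The planned test across libraries was replaced by description, because no value per library was held. A region was called at an adjusted p-value under 0.05, adjusted over all 36436 such regions. Lines repeating a region were merged for counts over the table. Distances were checked: for 89.3% of 62105 lines with a RefSeq start they led to within 1000 bases of it. Median intervals are order-statistic 95% intervals. Centring subtracted a median, took normal p-values and repeated Benjamini-Hochberg adjustment (Python 3.11.15, SciPy 1.17.1). Centring was tried on simulated data whose added changes were larger than those of the called members, so its power at their size was not tested. Members and lists were chosen with earlier results of these data known. Named regions of a member are those at its start, its highest, its largest and smallest change with an adjusted p-value, and all called. Pathway genes are named by calls and starts. Depth per library is unknown.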

Additional observations from a re-analysis of the deposited data

How the results depend on the processing

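The count of 5 called member regions, all beside ligands, became 1 at an adjusted p-value under 0.01, 3 when a log2 size of 1 or more was also required, 1 with adjustment over all distinct regions and 0 after centring on either median. It was 5 within 100 kb of the assigned gene. The first 2 follow from the construction, as does the fall on centring, which subtracts a shift shared by most regions. The EREG region with the smallest p-value was the one kept over all distinct regions, at an adjusted p-value of 0.0161. The other 4 ran from 0.0703 to 0.110. The receptor count was 0 in each of these settings. Starting from 0, it could not have risen under the stricter threshold, the size limit, the distance limit or the adjustment over all distinct regions. Those settings are therefore no check of it. Without AREG, EREG and BTC together, a setting added after the data were seen, the ligand median fell to 0.34 and its difference from the receptors to 0.12. With filters on level, equal weight per gene, a distance limit or any 1 gene left out, the difference stayed between 0.27 and 0.41. Of 27 regions followed singly, centring turned 7 negative, none of them called: -0.055 at HBEGF, -0.27 at TGFA, -0.042 at EGFR, -0.16 and -0.023 at ERBB2, and -0.028 and -0.15 at ERBB3. No paired analysis was possible because the table holds no value per library, and fits that leave out a library or change its scaling were not run for the same reason.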

Other observations

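The positive values around EREG and AREG reached beyond the window towards the chemokine genes. In the 500 kb below the window, 38 of 39 regions were positive by the authors' deposited table, beside 73.7% of all regions. Their median log2 fold change was 0.64 (0.46 to 0.88). Of the 14 with an adjusted p-value, beside 1.67% called among all such regions of the table, 4 were called. These lay beside CXCL5, CXCL3 and MTHFD2L and were singled out after their values were seen. CXCL5 and CXCL3 encode neutrophil-attracting chemokines, and MTHFD2L an enzyme of mitochondrial folate metabolism. The CXCL3 regions, at 74036470 to 74040390 over the start and at 74055120 to 74058615, had 0.94 ± 0.27 (standard error) and 1.15 ± 0.32 by the authors' deposited table. The CXCL5 region at 74014458 to 74018993 had 1.03 ± 0.27, and the MTHFD2L region at 74228525 to 74232979, 134 kb from the EREG start, had 1.03 ± 0.25 by the authors' deposited table. The 4 had adjusted p-values between 0.00968 and 0.0352.

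Farther out the values were nearer to those of the table. Between 500 and 1000 kb from the window, on either side, the median was 0.33 over 31 regions of the authors' deposited table. Between 1000 and 2000 kb it was 0.10 over 64 regions. Between 2000 and 5000 kb it was 0.40 over 68 regions, beside 0.30 over the whole of chromosome 4. The order of medians with distance was therefore not steady. Only 15 of the 31, 27 of the 64 and 29 of the 68 had an adjusted p-value, and 0 of these were called. The share called across the whole table was 1.67%, so 0 calls among so few do not show where calls end. At unadjusted p-values under 0.05, from the same DESeq2 columns, 0 of the 31, 4 of the 64 and 8 of the 68 regions were positive, the last a share of 11.8%, beside 8.68% of all regions. The side above the window held 7 regions within 500 kb, 1 of them with an adjusted p-value, so the extent on that side is hardly measured.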
